A study of Mus musculus with 15 samples.

Results

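Tumors of mice given 100 µg per dose of an antibody against VEGF-A were compared with tumors of mice given 50 µg, 3 RNA-seq libraries against 3. These 6 libraries, of 15 in the series, were chosen by the dose in their titles. GL261 is a mouse glioma line, and the C57BL/6 mice carried it in the brain. The antibody was B20.4.1.1 from Genentech, first given on day 10 after implantation and then every 3 days until the endpoint. The mice were perfused with saline, and total RNA was made from the frozen tumors, so each library mixes tumor cells, vessels, immune cells and brain. Untreated GL261 tumors, GL261 tumors at 200 µg and healthy brain made up the other libraries, 3 of each. The labels do not say whether the libraries of a group came from separate mice, so p-values measure only the spread between these samples.

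Replicate 3 of both doses stood apart and also carried a label that conflicted with its title. The tag for the agent named the next higher dose in 3 libraries of the series, which were untreated replicate 3, 50 µg replicate 3 (tagged 100 µg) and 100 µg replicate 3 (tagged 200 µg). The 50 µg replicate 3 held 88071 assembled transcripts, 62.0% of them with a single exon, and sat at 90.55 on the second principal component, where the other 11 tumor libraries ran from -23.47 to 3.55. The 100 µg replicate 3 held 38194 transcripts, 18.7% with a single exon. On the first component it sat at 41.28, beside the 200 µg libraries at 40.4 to 48.92, while the other 100 µg libraries sat at -17.85 and -16.94. Its mean correlation was 0.906 with the 200 µg libraries and 0.835 with its own group. Results are therefore given for 3 against 3 and again for replicates 1 and 2 of each dose alone. Whether these libraries carry the wrong dose was not tested. Estimated depth was 19.4 to 23.8 M fragments in the 6 libraries. The tissue label was borne out by markers: 18 neuron genes summed to 26.04 to 57.4 FPKM (fragments of a transcript scaled for its length and the library's depth) in the 6 libraries and to 1696 to 2288 FPKM in healthy brain, and 28 mitosis genes summed to 323.5 to 692.5 FPKM against 12.01 to 21.4 FPKM.

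VEGF-A is the main growth signal for blood vessels and is made in excess by gliomas, often in cells short of oxygen. It binds the receptors FLT1 and KDR on endothelial cells, with neuropilins as co-receptors, and drives sprouting by tip cells. The antibody binds the protein and not its transcript, so no transcript in these libraries reports directly on how much of it was blocked. Cells short of amino acids or glucose, or with misfolded protein, switch on the transcription factor ATF4, whose targets import and make amino acids and charge transfer RNAs.

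No gene of 14442 passed an adjusted p of 0.05 in 3 against 3 libraries (0%, limma with Benjamini-Hochberg adjustment). At an unadjusted p under 0.05 there were 1360 genes, or 9.42% of those tested. Of these, 905 were higher at 100 µg (6.27%) and 455 were lower (3.15%). The smallest adjusted p was 0.0674, shared by 11 genes, 8 higher and 3 lower. For each of the 11, the 3 libraries of one dose lay wholly above those of the other. Of all genes, 7.42% were higher without overlap at 100 µg and 4.44% lower. Of the 905 and 455 genes above, 656 and 341 did not overlap, so separation goes with a small p and adds no support. For 6 of the 11 the gene value was uncertain, because transcripts ran into another gene, genes overlapped or a near-identical copy exists. Without the 100 µg replicate 3 the count of called genes was 15. It was 5 without 50 µg replicate 1, 2 without 50 µg replicate 3, 2 without 100 µg replicate 1, 3 without 100 µg replicate 2 and 0 without 50 µg replicate 2. The median standard error of a log2 difference was 0.257.

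The 12 genes with the smallest p and a certain value, 6 in each direction, were picked on these same libraries. They separated the doses in every library, and none passed the threshold. Timp2, an inhibitor of matrix metalloproteinases (mm10, chr11:118301069-118355740), was at 7.32, 9.20 and 8.74 FPKM in the 50 µg libraries and at 23.4, 20.8 and 18.7 FPKM in the 100 µg libraries. All 3 high-dose values lay above all 3 low-dose values, replicate 3 included. On the log2(FPKM + 1) scale used for all differences here, Timp2 differed by 1.22 (SE 0.16, limma adjusted p = 0.0674). Healthy brain held more Timp2, at 49.6 to 66.7 FPKM; the neuron genes summed to 48.3, 57.4 and 26.04 FPKM at 50 µg and to 40.1, 45.1 and 35.5 FPKM at 100 µg, and 14 astrocyte genes to 190, 366 and 288 FPKM and then to 490.5, 633 and 274 FPKM. Both sums overlap between doses, and the part of brain tissue in the Timp2 values was not tested. Slc1a4, a carrier of serine, alanine and other neutral amino acids (chr11:20302180-20332713), was at 13.2, 15.6 and 13.6 FPKM and then at 28.7, 24.4 and 29.5 FPKM. Its doses did not overlap either, and the difference was 0.91 (SE 0.14, limma adjusted p = 0.0674). Cd24a, a surface glycoprotein that restrains phagocytes through Siglec receptors (chr10:43578284-43584265), went from 1.09, 0.46 and 0.63 FPKM to 4.17, 3.04 and 2.41 FPKM, a low level at both doses.

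Lbp, which binds bacterial lipopolysaccharide and belongs to the acute-phase proteins (chr2:158306493-158332852), was at 7.23, 14.2 and 7.42 FPKM at 50 µg and at 35.7, 27.0 and 24.5 FPKM at 100 µg. The lowest high-dose library was above the highest low-dose library. Wars, the cytosolic tryptophanyl-tRNA synthetase (chr12:108860030-108894174), was at 24.8, 31.0 and 26.5 FPKM and then at 57.8, 49.8 and 48.5 FPKM. Smad3, a transducer of TGF-β signals (chr9:63646767-63757994), was at 3.97, 3.74 and 3.46 FPKM and then at 8.32, 7.56 and 7.33 FPKM. These 3 genes had log2 differences of 1.55, 0.90 and 0.89, with limma adjusted p of 0.127, 0.127 and 0.189.

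The largest difference in the other direction was in Tmem119, a membrane protein used as a marker of microglia, the resident macrophages of the brain (chr5:113793729-113800516). It was at 144, 118 and 61.6 FPKM at 50 µg and at 7.997, 4.83 and 17.8 FPKM at 100 µg. Both replicate 3 values were the ones nearest to the other dose, and still the groups did not overlap (log2 difference -3.37, SE 0.51, limma adjusted p = 0.0674). Rhd, a blood-group membrane protein of the Rh family (chr4:134864536-134896172), was at 6.44, 5.90 and 5.23 FPKM and then at 1.18, 2.01 and 1.74 FPKM. Sgk2, a kinase related to the glucocorticoid-induced SGK1 (chr2:162987330-163014127), was at 5.11, 3.56 and 4.42 FPKM and then at 0.57, 0.80 and 1.78 FPKM. Tm2d1 (chr4:98355370-98383306) was at 20.4, 25.9 and 29.5 FPKM and then at 8.35, 8.69 and 7.90 FPKM. Mtfp1, which acts in mitochondrial fission, and Abhd3, a lipase of phospholipids, completed the lower genes with differences of -0.99 and -1.16.

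**Figure D1:**
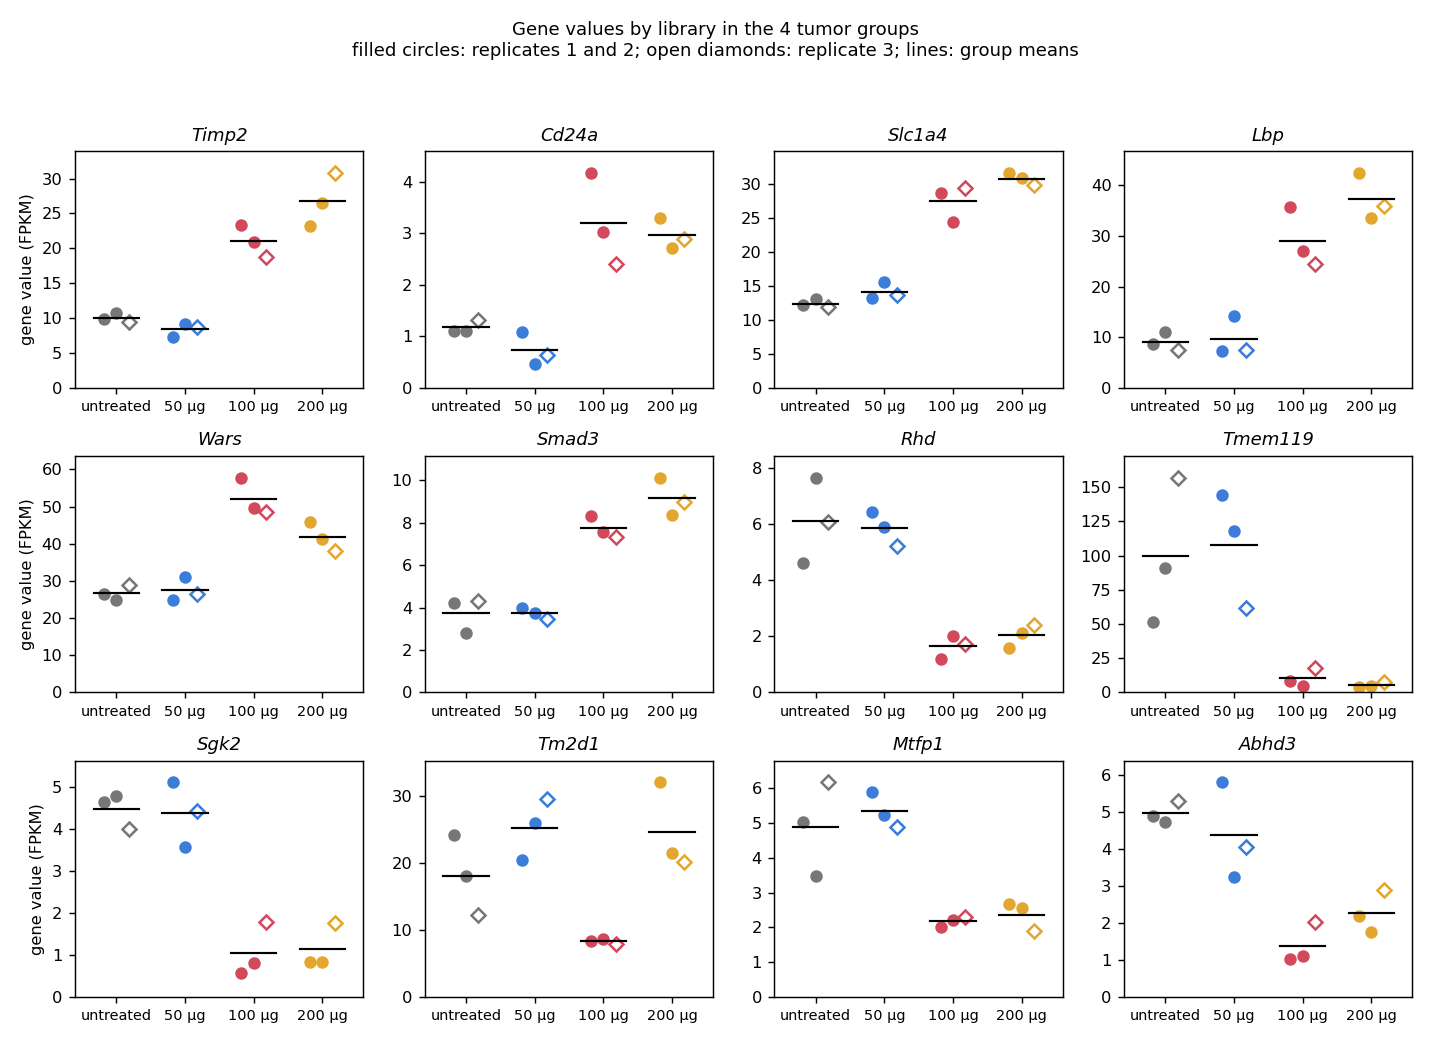
Gene values in FPKM (vertical axes, from 0) for the 12 genes of smallest p with a certain value, by tumor group (horizontal axes). Circles are replicates 1 and 2, diamonds replicate 3 and lines group means; the 50 and 100 µg libraries do not overlap in any panel, and the 200 µg libraries of 11 genes lie beyond all 50 µg libraries on the side of 100 µg, Tm2d1 being the exception.

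Grouping by the agent tag in place of the title moved these values. Under it the difference was 0.85 for Timp2, 0.62 for Slc1a4, 0.75 for Cd24a, 1.01 for Lbp, 0.58 for Wars and 0.50 for Smad3. It was -3.23 for Tmem119, -1.05 for Rhd, -1.06 for Sgk2, -0.49 for Tm2d1, -0.81 for Mtfp1 and -1.02 for Abhd3. All 12 kept their sign with a smaller size, and limma adjusted p ran from 0.18 for Tmem119 to 0.743 for Tm2d1. Replicates 1 and 2 of each dose stayed in place under the tag, so the sign was largely fixed in advance. Of genes described further on, Slc7a5 was at 0.28, Abcc4 at 0.28, Nrp2 at 0.52, Pgf at -0.53, Nes at 0.59 and Cp at 0.83.

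The untreated and 200 µg tumors lay on opposite sides for nearly all of these genes. Their libraries are not in the difference but entered the spread behind the p by which these genes were picked. By the agent tag, 100 µg replicate 3 would be a 200 µg library and untreated replicate 3 would leave its group. The 2 groups are therefore no independent support. For all 12 genes the untreated libraries lay short of every 100 µg library, and for 11 the 200 µg libraries lay beyond every 50 µg library. The share of all genes for which this holds was not computed. Timp2 was at 9.37 to 10.7 FPKM without treatment and at 23.2 to 30.8 FPKM at 200 µg, and Rhd at 4.62 to 7.67 and at 1.58 to 2.40 FPKM. Tm2d1 was the exception, at 20.1 to 32.1 FPKM at 200 µg. Over all 14442 genes, 52.5% had a higher mean at 200 µg than without treatment. Among the 905 genes higher at 100 than at 50 µg at an unadjusted p under 0.05, 86.1% did, with a median difference of 0.52. Among the 455 lower genes 84.6% were lower at 200 µg than without treatment, against 47.0% of all genes, with a median of -0.46. For genes taken from replicates 1 and 2 alone the shares were 72.5% of 931 higher genes and 69.2% of 873 lower genes. These shares are descriptions, since genes are not independent replicates.

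Among the VEGF ligands and receptors, the neuropilin Nrp2 and the ligand Pgf separated the doses, and Vegfa did not. Nrp2, a co-receptor for VEGF family members and semaphorins, was at 4.67, 6.01 and 4.88 FPKM at 50 µg and at 11.8, 8.59 and 13.3 FPKM at 100 µg. The doses did not overlap, and the 200 µg mean was 10.6 ± 1.29 FPKM (SD, n = 3) against 4.69 ± 0.78 without treatment (log2 difference between 100 and 50 µg 0.97, SE 0.19, limma unadjusted p = 0.000465, adjusted p = 0.224). Pgf, placental growth factor, which binds FLT1, was at 6.98, 3.50 and 3.67 FPKM and then at 2.72, 1.68 and 1.82 FPKM, again without overlap (difference -0.86, SE 0.30, limma unadjusted p = 0.0172, adjusted p = 0.450).

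Vegfa itself was at 58.2, 68.1 and 25.3 FPKM at 50 µg and at 72.7, 40.2 and 42.8 FPKM at 100 µg. The spread within each dose was wider than the difference of 0.10 (SE 0.37), and its sign changed when 50 µg replicate 3 or 100 µg replicate 1 was left out. The receptors Flt1 and Kdr differed by -0.10 (SE 0.18) and 0.25 (SE 0.35), Nrp1 by 0.36 (SE 0.21) and Vegfb by -0.20 (SE 0.27), all with overlapping libraries. Flt4, Vegfd and Vegfc were below the level tested, and Vegfc was listed at 0 in every tumor library. Of the 7 genes tested, 1 was higher (6.27% of all genes) and 1 lower (3.15%) at an unadjusted p under 0.05. Nrp2 and Pgf alone did not overlap, as did 7.42% of all genes toward higher values and 4.44% toward lower.

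**Figure D2:**
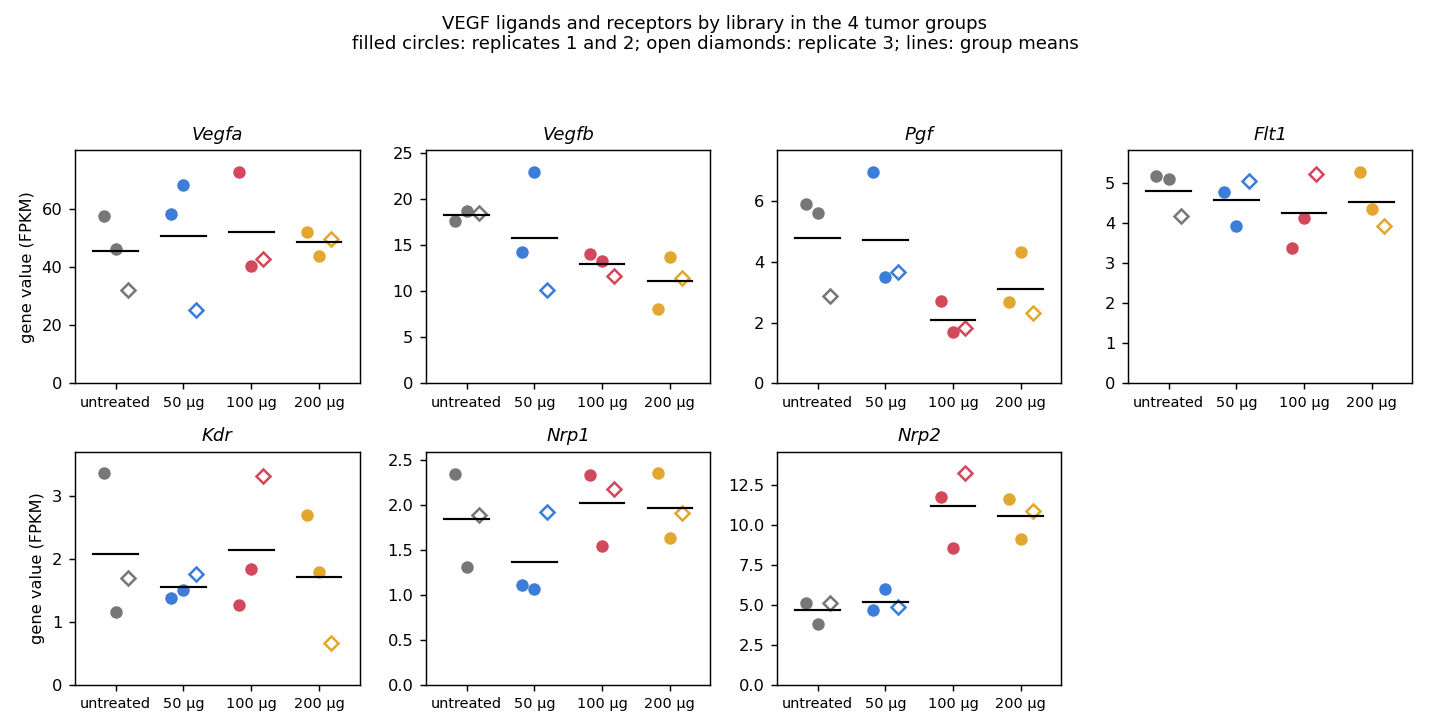
FPKM of the 7 tested VEGF ligands and receptors (vertical axes, from 0) by tumor group, with circles for replicates 1 and 2, diamonds for replicate 3 and lines for means. Nrp2 at 100 µg (8.59 to 13.3 FPKM) lies above all 50 µg libraries, while Vegfa ranges from 25.3 to 68.1 FPKM at 50 µg and from 40.2 to 72.7 FPKM at 100 µg.

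Of 17 tested endothelial genes 1 was higher at an unadjusted p under 0.05 (6.27% of all genes) and none lower, and 3 had doses that did not overlap, all higher at 100 µg (7.42% of all genes). In replicates 1 and 2 alone 15 of 17 were above 0 (49.1% of all genes), with a median of 0.15. At an unadjusted p under 0.05, 1 was higher there (6.47% of all genes) and 1 lower (6.07%). The gene higher in 3 against 3 was Vwf, the clotting factor stored by endothelial cells, at 2.44, 2.35 and 1.93 FPKM and then at 3.44, 3.53 and 4.01 FPKM. The adhesion molecules Pecam1 and Cdh5 differed by 0.05 (SE 0.29) and -0.05 (SE 0.25). None of 15 tip cell and sprouting genes reached an unadjusted p under 0.05. Among 13 pericyte and mural cell genes 11 had estimates above 0, with a median of 0.60 against 0.05 over all genes. In 3 of the 13 the doses did not overlap toward higher values (7.42% of all genes), and in 1 toward lower (4.44%). Only Pdgfrb, the receptor that holds pericytes to vessels, had an unadjusted p under 0.05 (6.27% of all genes were higher). Pdgfrb was at 1.37, 2.05 and 0.70 FPKM and then at 2.66, 2.79 and 3.09 FPKM. The list's summed level was 111, 124 and 62.9 FPKM and then 143, 147 and 142 FPKM, which do not overlap, and its part in the Pdgfrb value was not tested. The Pdgfrb difference of 0.73 (SE 0.29) was 0.47 in replicates 1 and 2 and turned to -0.24 when FPKM was summed without weighting by covered length. In bulk tissue, fewer cells of a type and less RNA per cell cannot be told apart.

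Genes that carry nutrients and drugs across the blood-brain barrier included 7 of 12 that were higher at an unadjusted p under 0.05 (6.27% of all genes were), and none lower. The amino acid carriers Slc7a5, Slc3a2 and Slc7a1 were 3 of them, and all 3 are also counted in the amino acid stress list below. Abcb1a (P-glycoprotein), Abcg2 and Abcc4, pumps that export drugs, were 3 more. Slco1a4, a carrier of organic anions, was the last. Slc7a5, which imports large neutral amino acids with Slc3a2 as its partner chain, was at 62.6, 87.7 and 51.0 FPKM and then at 110, 109 and 116 FPKM. The 100 µg libraries were nearly alike and all above the 50 µg libraries (difference 0.76, SE 0.21, limma adjusted p = 0.336). Abcb1a overlaps another gene, so its value is uncertain. Abcg2 was at 2.37, 2.55 and 4.02 FPKM and then at 4.07, 4.40 and 5.21 FPKM, and Abcc4 at 3.57 to 3.70 and then at 5.13 to 6.06 FPKM. After median-of-ratios scaling of the libraries 5 of the 12 were higher at an unadjusted p under 0.05. Replicates 1 and 2 alone gave 5 higher (6.47% of all genes) and 1 lower (6.07%), the lower gene being the glucose carrier Slc2a1. The 20 endothelial genes summed to 112, 128 and 128 FPKM at 50 µg and to 134, 137 and 117 FPKM at 100 µg. These sums overlap over 3 replicates and do not overlap in replicates 1 and 2, and their part in the transporter values was not tested.

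The amino acid stress list, ATF4 and its known targets, is the longest of the lists examined. Of 34 tested entries (Ddit3 counts under 2 identifiers), 30 had estimates above 0, as had 56.9% of all genes. In 12 the unadjusted p was under 0.05 and the value higher (6.27% of all genes), in none lower (3.15% of all genes). In 12 the doses did not overlap (7.42% of all genes, in that direction). The median was 0.35. The 12 of small p were the transporters Slc1a4, Slc7a5, Slc3a2 and Slc7a1, the synthetase Wars, the enzymes Phgdh, Cth and Aldh1l2 of serine, cysteine and one-carbon metabolism, and the stress genes Chac1, Nupr1, Sesn2 and Vldlr. Among them Phgdh has near-identical copies and Aldh1l2 overlaps another gene. In replicates 1 and 2 alone 28 of 34 were above 0 (49.1% of all genes), with a median of 0.27. At an unadjusted p under 0.05, 7 were higher there (6.47% of all genes) and none lower. Median-of-ratios scaling of the 3 against 3 libraries gave 8 higher. None passed the adjusted threshold.

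Chac1, which degrades glutathione, was at 7.69, 22.1 and 12.1 FPKM at 50 µg and at 41.1, 27.8 and 22.3 FPKM at 100 µg. The highest low-dose library and the lowest high-dose library nearly touched (difference 1.14, SE 0.35, limma adjusted p = 0.399). Cth, which makes cysteine, was at 5.96, 9.60 and 10.3 FPKM and then at 11.6, 14.5 and 14.8 FPKM. Nupr1, a small stress-induced chromatin protein, was at 12.3, 28.2 and 26.9 FPKM and then at 42.3, 63.5 and 28.5 FPKM, with replicate 3 of the doses nearly level. Atf4 itself was at 149, 268 and 390 FPKM and then at 243, 290 and 285 FPKM, with a difference of 0.12 (SE 0.29). Asns and Trib3, also targets, differed by 0.28 (SE 0.18) and -0.20 (SE 0.28). Untreated tumors had 3.46 ± 0.93 FPKM of Cth (SD, n = 3) and 200 µg tumors 17.2 ± 4.29 FPKM. For Cth the 50 µg mean of 8.62 ± 2.32 FPKM lay between untreated and 100 µg, unlike Slc1a4, whose untreated mean of 12.4 ± 0.66 FPKM was close to the 50 µg mean of 14.1 ± 1.27 FPKM.

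ATF4 binds, with C/EBP partners, the element TGATGNAA. It was searched on both strands in the 250 bases before and 50 bases after each start in RefSeq promoters (GRCm38.p6). It was present for 11 of the 28 tested list members with a promoter in the table (39.3%) and for 4.51% of 27025 genes. The list was drawn up from known ATF4 targets, so this share describes the list and is no result of the dose. Of the 12 members with higher values, 8 had a promoter and 4 of these held the element. Their windows are shown because they are the higher members in which the element was found. The windows are written along the gene's strand with the element in capitals. All 4 hold TGATGNAA on the opposite strand, so along the gene's strand it reads TTGCATCA. The windows lie at chr2:119351023-119351082 (Chac1), chr7:126625547-126625606 (Nupr1), chr11:20332710-20332743 (Slc1a4, shown only up to the element, which crosses the start) and chr19:27216794-27216853 (Vldlr).
Chac1: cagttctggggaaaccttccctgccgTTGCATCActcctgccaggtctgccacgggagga
Nupr1: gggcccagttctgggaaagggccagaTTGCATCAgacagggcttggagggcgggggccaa
Slc1a4: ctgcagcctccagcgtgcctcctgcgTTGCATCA
Vldlr: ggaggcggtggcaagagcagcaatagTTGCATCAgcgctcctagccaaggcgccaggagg
The element begins 193, 110, 4 and 200 bases before the start of Chac1, Nupr1, Slc1a4 and Vldlr.

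**Figure D3:**
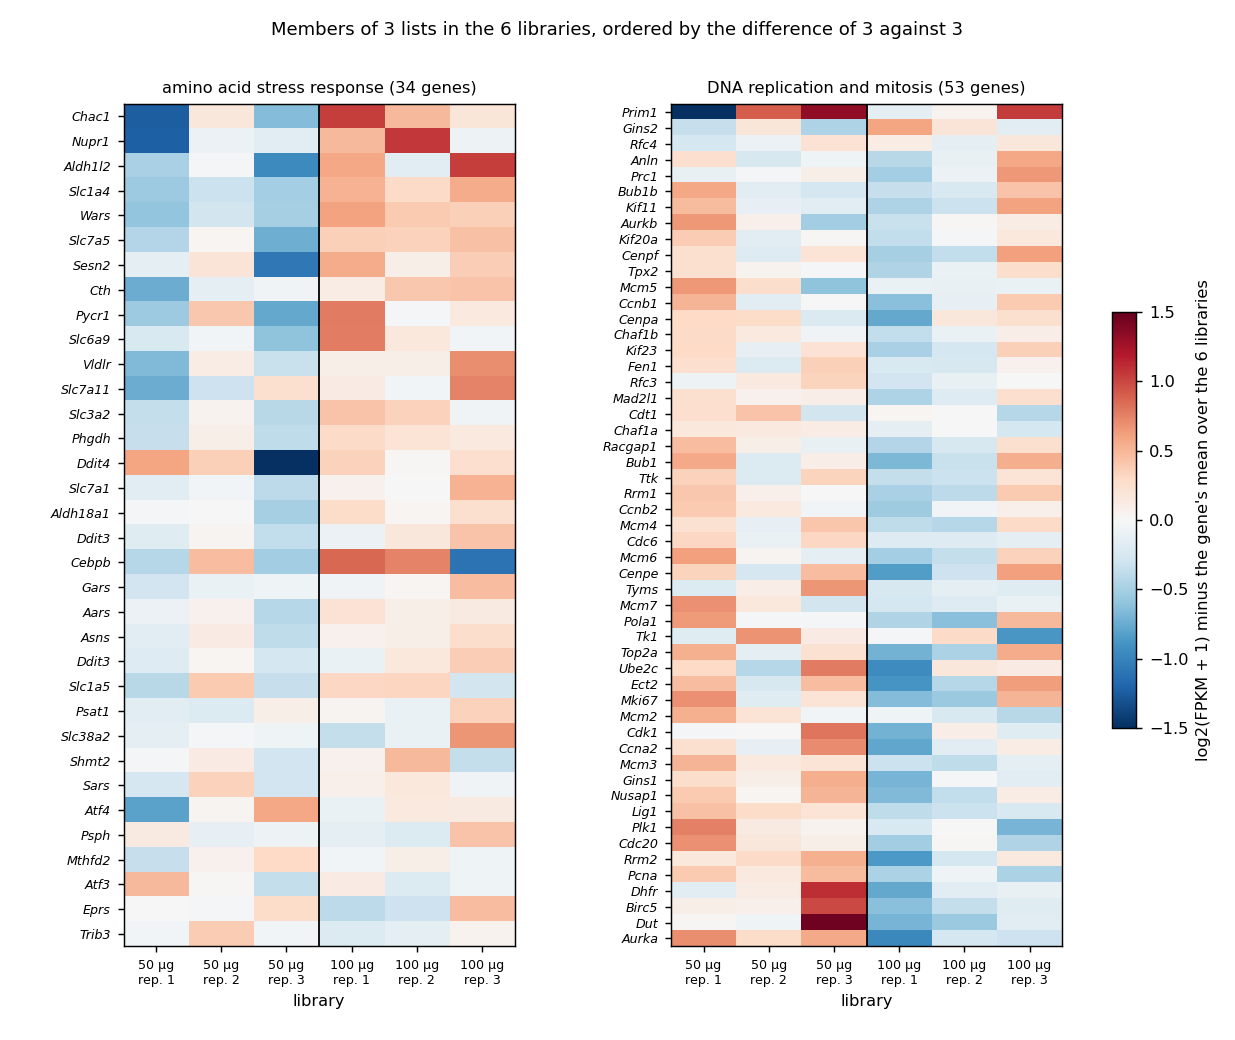
Each row is a gene and each column 1 of the 6 libraries; color is log2(FPKM + 1) minus the gene's mean over the 6, clipped at -1.5 and 1.5, and rows are ordered by the difference of 3 against 3. Of the 34 amino acid stress entries 30 are higher on average at 100 µg, and 22 of 25 DNA replication and 26 of 28 mitosis genes are lower, with 100 µg replicate 3 often on the high side among the mitosis genes.

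Cell division genes had estimates below 0 in most members, while 56.9% of all genes had estimates above 0. Of 25 DNA replication genes 22 had estimates below 0, with a median of -0.35, and 9 had doses that did not overlap (4.44% of all genes did, in that direction). Of 28 mitosis genes 26 were below 0, with a median of -0.31. At an unadjusted p under 0.05 there were 2 lower in each list (3.15% of all genes) and none higher. Dut, which removes dUTP before it is built into DNA, was at 20.8, 19.7 and 58.0 FPKM and then at 12.3, 13.6 and 18.3 FPKM. Pcna, the sliding clamp of DNA polymerase, was at 119, 100 and 126 FPKM and then at 64.8, 86.5 and 64.9 FPKM, with a difference of -0.67 (SE 0.26); it has near-identical copies, so its value is uncertain.

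Aurka, the mitotic kinase Aurora A, was at 29.3, 21.7 and 26.9 FPKM and then at 8.60, 14.7 and 14.1 FPKM, though transcripts joined to another gene make its value uncertain. Mki67, the proliferation marker, was at 32.9, 17.6 and 23.2 FPKM and then at 12.4, 13.4 and 28.9 FPKM, so that the 100 µg replicate 3 lay above 2 of the 3 low-dose libraries. Summed over the 28 mitosis genes the libraries were at 693, 491 and 613 FPKM and then at 324, 453 and 567 FPKM, which overlap. At 200 µg this sum was 689, 651.5 and 341 FPKM. The 25 DNA replication genes summed to 598, 535.5 and 620 FPKM at 50 µg and to 404, 430 and 477 FPKM at 100 µg. At 200 µg they summed to 587, 533 and 353 FPKM. In both lists the 200 µg sums overlap those at 50 µg. Replicates 1 and 2 alone had all 28 mitosis genes below 0 (median -0.55), with 1 at an unadjusted p under 0.05 (6.07% of all genes were lower). The G1 cyclin Ccnd2 went the other way, at 40.6, 57.0 and 60.3 FPKM and then at 92.5, 84.6 and 93.8 FPKM, with a value shared with overlapping genes.

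Hypoxia and glycolysis genes had estimates below 0 in 18 of 25 entries, with a median of -0.25, and 2 were lower at an unadjusted p under 0.05 (3.15% of all genes). These were Bnip3, a mitophagy receptor induced by low oxygen (uncertain, with joined transcripts), and Pdk1, which keeps pyruvate out of mitochondria. Pdk1 was at 8.13, 5.57 and 4.07 FPKM and then at 3.42, 2.60 and 4.68 FPKM, with replicate 3 the one that overlapped. In replicates 1 and 2 alone 23 of 25 were below 0 (median -0.44), 9 at an unadjusted p under 0.05 (6.07% of all genes were lower in that comparison). Slc2a1, the glucose carrier GLUT1, was at 323 and 186 FPKM and then at 79.0 and 60.8 FPKM in these libraries (difference -1.81, SE 0.33, limma adjusted p = 0.113, with a value shared with another gene). In replicate 3 it was at 58.1 FPKM at 50 µg and 113 FPKM at 100 µg, the opposite order. Of the 9 genes, Pdk1, Car9, Slc2a1, Ankrd37, Egln3, Slc16a3 and Eno1 were higher at 100 µg in replicate 3, and Bnip3 and Pfkl lower. In cholesterol and fatty acid synthesis 23 of 25 genes were below 0 in replicates 1 and 2 (median -0.37), 7 of them at an unadjusted p under 0.05 (6.07% of all genes). In 3 against 3, 14 of the 25 were above 0 (median 0.04), none at that level.

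Most of the tested microglia markers did not share the difference seen in Tmem119. Slc2a5, Sall1, Gpr34 and Siglech, also in the list, were below the level tested. Of 12 tested homeostatic microglia genes 5 had estimates above 0 and 7 below. At an unadjusted p under 0.05, 2 were lower (3.15% of all genes) and none higher. Beside Tmem119 this was Olfml3, a secreted matrix protein of microglia. Olfml3 was at 21.4, 17.6 and 16.1 FPKM and then at 13.6, 9.67 and 8.29 FPKM. The receptors P2ry12 and Cx3cr1 differed by -0.10 (SE 0.30) and -0.18 (SE 0.55), and Csf1r by 0.13. Healthy brain held 8.17 to 13.2 FPKM of Tmem119 and 12.1 to 13.8 FPKM of P2ry12. The 50 µg tumors held 61.6 to 144 FPKM of Tmem119 and 1.06 to 3.42 FPKM of P2ry12, so Tmem119 was above brain and P2ry12 below it. P2ry12 and Cx3cr1 overlap other genes and are uncertain. At 100 µg Tmem119 was at 4.83 to 17.8 FPKM, overlapping brain.

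Of 20 monocyte and macrophage genes 1 was higher (6.27% of all genes) and 1 lower (3.15%) at an unadjusted p under 0.05. Spp1, osteopontin, which overlaps another gene, was at 37.7, 44.8 and 35.9 FPKM and then at 68.6, 64.9 and 67.9 FPKM. Cd14, the lipopolysaccharide co-receptor that receives its ligand from the Lbp protein, was at 24.5, 17.2 and 10.3 FPKM and then at 5.29, 6.60 and 8.18 FPKM. Lbp was higher at 100 µg and Cd14 lower, neither past the adjusted threshold. In the complement and acute phase list 4 of 17 were higher (6.27% of all genes) and 1 lower (3.15%) at an unadjusted p under 0.05. Lbp, C4b and Lrg1 were among the higher genes and Cd14 was the lower one; C4b has a near-identical copy. Grouped by the agent tag, 8 of the 17 had estimates above 0, against 13 by the title. C4b was at 46.6, 44.3 and 29.3 FPKM and then at 61.1, 69.0 and 130 FPKM.

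Interferon response genes were above 0 in 21 of 27 (56.9% of all genes), with a median of 0.36, and 4 were higher at an unadjusted p under 0.05 (6.27% of all genes), none lower. Igtp, a GTPase against intracellular pathogens, was at 256, 198 and 226 FPKM and then at 356, 307 and 427 FPKM. Stat2, which carries type I interferon signals, was at 26.4, 29.6 and 31.8 FPKM and then at 42.1, 40.02 and 50.1 FPKM. Both separated the doses; Igtp overlaps another gene. Gbp2 and Iigp1 were the other 2, with overlapping libraries. The median in replicates 1 and 2 was 0.19, with 2 higher at an unadjusted p under 0.05 (6.47% of all genes). Chemokines and their receptors were below 0 in 12 of 17, with Ccl2 and Ccl8 lower at an unadjusted p under 0.05 (3.15% of all genes). Ccl2, which draws monocytes, was at 4.18, 2.90 and 3.50 FPKM and then at 1.57, 1.71 and 1.95 FPKM, and Ccl8 was listed at 0 in 2 of the 3 high-dose libraries. Genes of MHC class I (15 tested), MHC class II (10) and T and NK cells (8) had none at that level. Among 9 checkpoint genes Cd47, the other signal against phagocytosis, was at 21.9, 21.9 and 29.4 FPKM and then at 11.9, 14.1 and 18.4 FPKM, lower where Cd24a was higher.

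Lineage genes differed in single members. Nes, the intermediate filament nestin of neural progenitors and glioma, was at 24.4, 19.8 and 16.6 FPKM and then at 77.4, 40.4 and 37.1 FPKM without overlap (difference 1.24, SE 0.28, limma adjusted p = 0.275), the only gene of 16 in its list at an unadjusted p under 0.05. Untreated tumors had 30.9 to 34.9 FPKM, between the doses. Of 14 myelin genes 11 were below 0. Opalin, Mal and Mog were lower at an unadjusted p under 0.05 (3.15% of all genes), and Trf, transferrin, was higher (6.27%). Mog and Trf are uncertain for joined transcripts. Opalin, a membrane protein of mature oligodendrocytes, was at 4.75, 3.47 and 0.92 FPKM and then at 0.49, 0.32 and 0 FPKM, while Mbp, an abundant myelin protein, differed by 0.01 (SE 0.18). All 9 astrocyte genes were above 0 (median 0.37), none at an unadjusted p under 0.05. In iron and copper handling 3 of 15 were higher at that level (6.27% of all genes) and none lower, with a median of 0.24 that was 0.06 in replicates 1 and 2: Trf, the copper pump Atp7a, and Cp, the ferroxidase ceruloplasmin. Cp was at 3.99, 4.06 and 3.85 FPKM and then at 13.7, 10.9 and 16.7 FPKM (limma adjusted p = 0.0674), and another gene overlaps it.

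Ribosomal protein genes of the cytosol were below 0 in 26 of 30, with a median of -0.30 and 3 at an unadjusted p under 0.05 (3.15% of all genes). Of the 13 with a certain value all were below 0, 1 of them at that level, and in replicates 1 and 2 the count was 20 of 30 below 0 with a median of -0.14. Grouped by the agent tag, 12 of 30 were below 0. Rpl8 was at 1072, 1257 and 1655 FPKM and then at 727, 865 and 779 FPKM, which do not overlap. Nuclear genes of the respiratory chain had none of 31 at that level. In matrix genes Spp1 and Mmp2 were higher at that level (6.27% of all genes) and Timp1 lower (3.15%) among 21. Timp1, at 89.2, 99.7 and 130 FPKM and then at 59.7, 101 and 48.3 FPKM, overlapped between doses and so differed from Timp2. The remaining lists held at most 1 such gene each in either direction: Herpud1 of the unfolded protein response, Gclc of glutathione synthesis and the immediate early factor Klf4 higher, and Xcr1, the receptor of cross-presenting dendritic cells, lower (its transcripts are joined to another gene). Of markers of other tissue a piece could hold, 6 of 10 choroid plexus genes were at 0 in all 6 libraries as were 3 of the 7 skeletal muscle genes with a value. The 8 meningeal fibroblast genes summed to 39.8, 44.3 and 24.7 FPKM at 50 µg and to 54.6, 52.5 and 44.9 FPKM at 100 µg, which do not overlap. All 4 tested were above 0 (median 0.66), none at an unadjusted p under 0.05. In replicates 1 and 2, 2 of the 4 were higher at that level (6.47% of all genes), with a median of 1.12. The part of meningeal tissue in the other results was not tested.

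**Figure D4:**
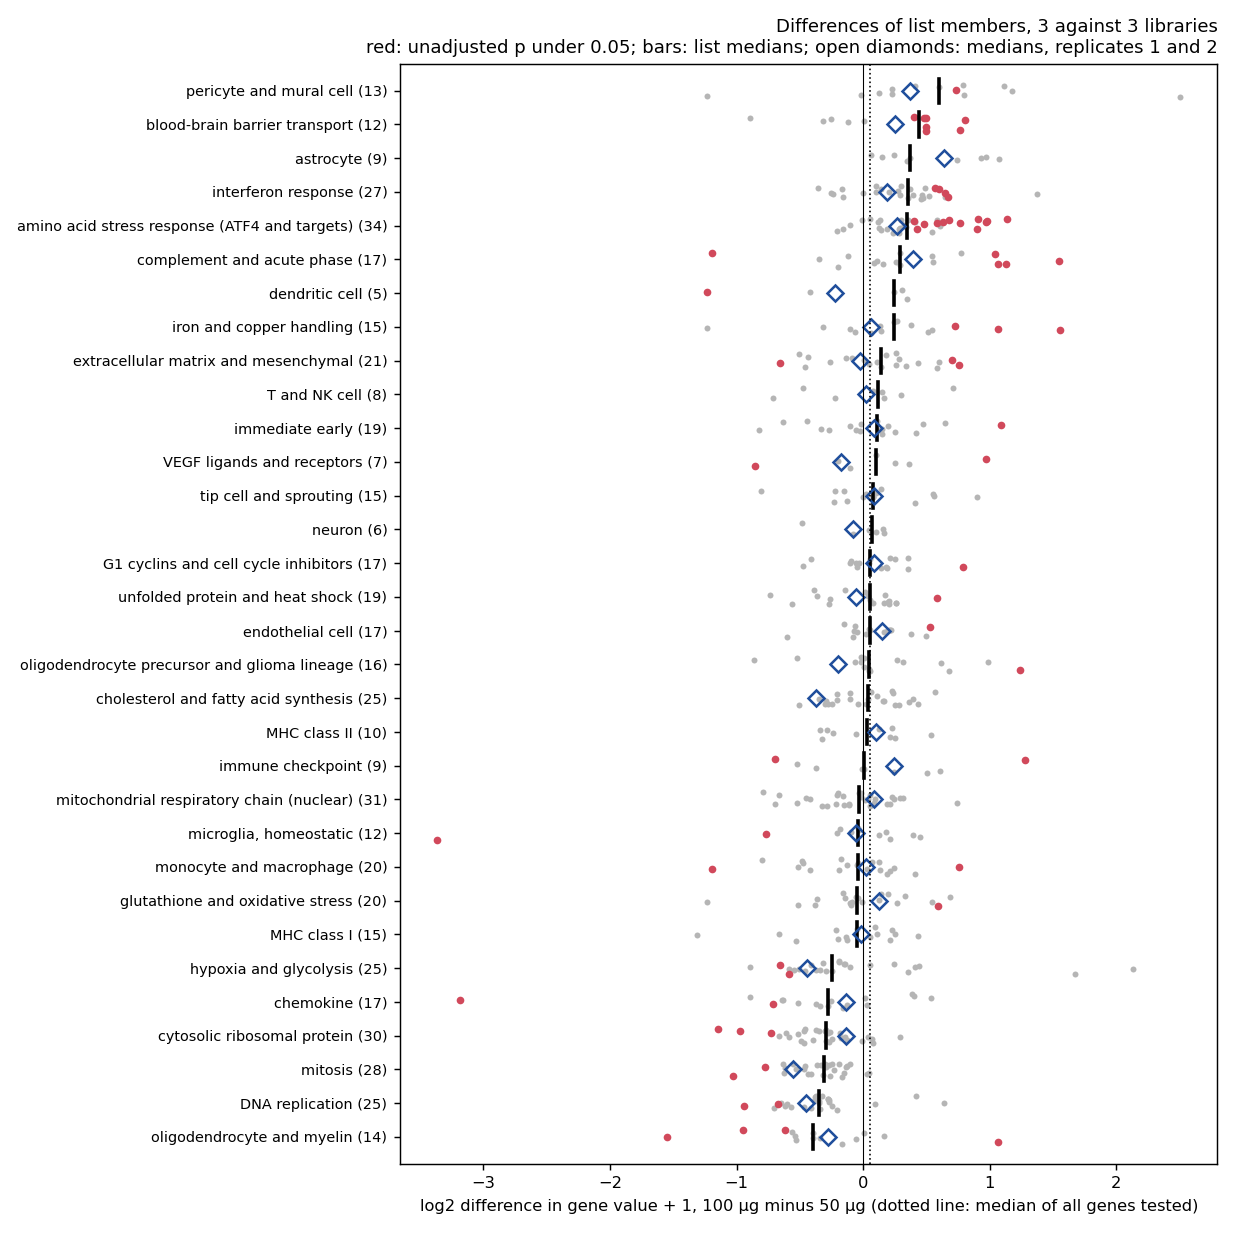
Log2 difference between 100 and 50 µg (horizontal axis) for every tested member of the lists with 5 or more tested genes, 1 list per row with the number tested in parentheses. Red points have an unadjusted p under 0.05, bars are medians and diamonds medians from replicates 1 and 2. Red points lie above 0 for 12 members of the amino acid stress list and for 7 of blood-brain barrier transport. Slc7a5, Slc3a2 and Slc7a1 are counted in both.

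With replicate 3 of both doses left out, 20 of 14384 genes passed an adjusted p of 0.05 (0.139%, limma), 14 higher (0.0973%) and 6 lower (0.0417%) at 100 µg. Of the 20, 14 had uncertain values, counting 3 genes shorter than 200 bases. One of these 3, Mir99b, was uncertain for its length alone; its level was 6.39 and 7.30 FPKM in 100 µg replicates 1 and 2, and it was listed at 0 in 100 µg replicate 3 and in every 50 µg library. Leaving out 1 more library raised the count, to 30 and 67 without 50 µg replicate 1 or 2 and to 46 and 62 without 100 µg replicate 1 or 2. Of those with a certain value, Timp2 and Serpinf1 rose, and Tmem119, Cd14 and Lhfpl2 fell. The last was the small RNA gene Gm22009, which reached the level tested only through the libraries where it is high. Serpinf1, or PEDF, a secreted inhibitor of vessel growth (chr11:75409769-75422701), was at 12.1 and 19.0 FPKM and then at 54.4 and 65.1 FPKM (difference 1.90, SE 0.25, limma adjusted p = 0.0449). In replicate 3 it was at 16.7 and 18.1 FPKM at 50 and 100 µg, nearly level, and at 200 µg it was at 47.0 to 64.0 FPKM. Timp2 rose by 1.32 (SE 0.18, limma adjusted p = 0.0485), Tmem119 fell by 4.18 (SE 0.49, limma adjusted p = 0.0270) and Cd14 fell by 1.64 (SE 0.20, limma adjusted p = 0.0358). Lhfpl2 was at 19.0 and 16.8 FPKM and then at 5.33 and 7.33 FPKM, while replicate 3 ran from 7.38 to 12.3 FPKM, the opposite order. Gm22009 was at 13.7 and 49.8 FPKM in 100 µg replicates 1 and 2 and was listed at 0 in every other tumor library, so its call rests on a spread among zeros. Of the uncertain genes, Sox4, a transcription factor of progenitor cells, was at 51.7 and 48.8 FPKM and then at 176 and 159 FPKM, and at 69.1 and 56.3 FPKM in replicate 3. Timp2 and Tmem119 kept their order in replicate 3, with differences of 1.02 and -1.73.

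Across all 14384 genes the difference between the replicate 3 libraries did not follow that of replicates 1 and 2 (Pearson r = -0.004 across genes, which are not independent). Of the 931 genes higher at an unadjusted p under 0.05 in replicates 1 and 2, 65.2% were higher in replicate 3, as were 60.4% of all genes. Of the 873 lower genes 34.7% were lower in replicate 3, as were 38.1% of all genes. Of the 14 genes called higher, 5 were higher and 6 lower in replicate 3. Of the 6 called lower, Tmem119 and Cd14 were lower there and 4 were higher.

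**Figure D5:**
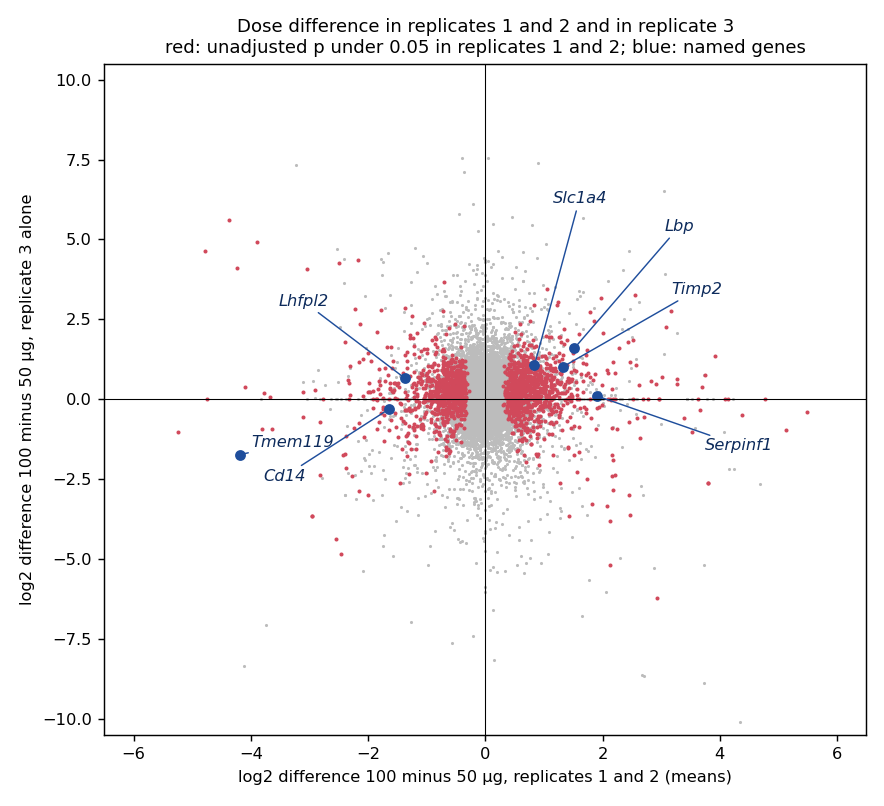
Log2 difference between 100 and 50 µg for 14384 genes, in replicates 1 and 2 (horizontal axis) and in replicate 3 alone (vertical axis); red genes have an unadjusted p under 0.05 in replicates 1 and 2, and 2 genes lie outside the axes. The red genes spread above and below 0 on the vertical axis on both sides. Of the labeled genes, Lhfpl2 changes sign, and Timp2, Slc1a4, Lbp, Tmem119, Serpinf1 and Cd14 keep theirs. Timp2, Slc1a4, Lbp and Tmem119 were picked by small p in 3 against 3. That comparison includes replicate 3, so their sign there is no independent support.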

How the data were processed

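The authors deposited, for each library, assembled transcripts with FPKM, made with STAR and Cufflinks on mm10, per the submitters' processing notes; the sources used here give no versions. Transcripts were assigned to GENCODE M21 genes. A gene's value was the sum of FPKM times the share of its exonic length covered. Single-exon transcripts under 200 bases were set aside. They held 5.08, 23.3 and 94.6% of summed FPKM in the 50 µg libraries and 99.6, 97.7 and 98.0% in the 100 µg libraries. The part of this in the differences was not tested. A value was uncertain (53.9% of genes tested) where 20% of it came from transcripts covering another gene, where genes overlapped, where a near-identical copy exists, or, a step beyond the rule for named genes, where the gene was under 200 bases. Depth was estimated from the width of Cufflinks' confidence bounds. Differences were tested with limma 3.58.1 in R 4.3.3 on log2(FPKM + 1), which understates changes of low genes, over 12 tumor libraries sharing one spread; tested genes averaged 1 FPKM or more, and calls needed an adjusted p under 0.05. An exact test of 3 against 3 cannot go below 0.1. A listing at 0 can be a failed assembly. Named genes were up to 12 a direction of the largest difference past the threshold with certain values, filled up to 6 by smallest p, up to 4 per list by smallest p, and all VEGF genes; other named genes were chosen after their values were seen. The members and lists were chosen with earlier results of these data known. Alternatives were planned, except the test without genes under 200 bases, which was added after seeing the data. The code was tested on simulated data. One member of a list is not reported here by name.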

Additional observations from a re-analysis of the deposited data

How the results depend on the processing

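In 3 against 3, the count of 0 called genes (1360 at an unadjusted p under 0.05) became 4 with only the 50 and 100 µg libraries, 5 with a plain sum of FPKM, 2 with a pseudocount of 5, 17 without the filter on low values and 5 at a mean of at least 5; pseudocount 0.1, both scalings, the trend option and genes with no joined transcripts gave 0. The plain sum moved the median of all genes from 0.05 to -0.14. Leaving out 1 library gave 0 to 15, the highest without 100 µg replicate 3, and grouping by the agent tag gave 22. For replicates 1 and 2 the count of 20 became 13 with only the 50 and 100 µg libraries, 13 with a pseudocount of 0.1 and 59 without the filter, and 30 to 67 with 1 library left out, the lone library then being assumed to vary like the others. With the replicate block the counts were 0 and 6. Same-numbered 50 and 100 µg libraries correlated at 0.049, 0.053 and 0.1, so the numbers were not taken to pair samples, and not every library correlated best with its own number. Signs turned for Vegfa (plain sum -0.089, agent tag -0.253, 1 library left out -0.325 to 0.371, with -0.163 without 100 µg replicate 1), Kdr (plain sum -0.023, 1 left out -0.0088 to 0.458), Vegfb (1 left out -0.454 to 0.096), Flt1 (1 left out -0.233 to 0.021), Nrp1 (plain sum -0.184) and Pdgfrb (plain sum -0.243). By the agent tag they turned for Atp7a (-0.061), Dut (0.081), Birc5 (0.037), Timp1 (0.035), Mmp2 (-0.205) and Rpl7a (0.028). The causes were not tested. With no read counts, the depth behind low genes is unknown.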

Other observations

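Beyond the comparison of doses, the genes that set replicate 3 apart within a dose were values of single libraries and have no test. In 50 µg replicate 3, Rps29, a ribosomal protein, was at 10.49 FPKM against 2256 and 2250 FPKM in replicates 1 and 2 and 634.5 to 2398 FPKM at 100 µg. Nop10, part of the complex that modifies ribosomal RNA, was at 11.02 FPKM there against 133 and 124 FPKM. Mtcl1, a microtubule protein, was at 588 FPKM against 3.72 and 3.88 FPKM, and no other tumor library was above 5.08 FPKM. In 100 µg replicate 3, the small GTPase Rhog was listed at 0 against 41.8 and 38.7 FPKM, and Uqcc2, an assembly factor of respiratory complex III, was at 8.04 FPKM against 187 and 215 FPKM. The pseudogene Gm4997 was listed at 0 in replicates 1 and 2 of both doses and at 141 and 103 FPKM in their replicate 3.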
